A study of Homo sapiens with 6 samples.

Results

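The non-clustered delta protocadherins PCDH1, PCDH7, PCDH8, PCDH9, PCDH10, PCDH17, PCDH18 and PCDH20 were followed in control and SAMD1 KO cells of PaTu8988t, an established human pancreatic ductal adenocarcinoma (PDAC) line. The 8 genes were taken by symbol from a table of 20347 gene symbols. The list was selected on the rise of PCDH7, whose log2 fold change between KO and control is among the largest in these same libraries. The other 7 were added as its relatives. The values of PCDH7 are therefore given as a description and are not tested. SAMD1 is a chromatin factor that binds unmethylated CpG islands. The control cells carried a lentiviral CRISPR vector with an unspecific guide RNA. The KO cells carried guides against SAMD1 and were grown from single cells, giving 3 clonally independent clones. Both groups had 3 libraries of stranded mRNA. Nothing in the sources used here says that the control replicates are separate clones, so p-values measure only the spread between these samples.

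Protocadherins are membrane proteins of the cadherin superfamily whose extracellular cadherin repeats bind the same protein on a neighbouring cell. Clustered protocadherins sit in large gene arrays, whereas delta protocadherins are single genes that act mainly in the developing nervous system, where they guide axon growth, cell sorting and synapse formation. Delta-1 members such as PCDH1, PCDH7 and PCDH9 carry a binding motif for protein phosphatase 1 in their cytoplasmic tail. Several delta-2 members, among them PCDH10 and PCDH17, bind the WAVE complex, which drives actin branching.

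Of the 8 genes, 2 had enough reads to be tested, and both were more abundant in every KO clone than in any control library, a separation that 19.2% of all tested genes showed with higher KO values. One of both is PCDH7, which was picked for its rise. PCDH1 rose 4.87-fold. PCDH7 was 12.9-fold higher. The other 6 had at most 7 reads in any library, and 3 of them had no read at all. The summed normalized count of the 8 genes lay between 55.8 and 66.4 in the control libraries and between 384.7 and 514.9 in the KO clones, a ratio of means of 7.29. PCDH7 makes up much of this sum. Without it the sum lay between 37.2 and 45.8 in controls and between 159.2 and 232.4 in the clones, a ratio of 4.73, nearly all of it PCDH1. Normalized counts are reads on a gene, scaled by the size factor of the library. In bulk RNA, more cells expressing a gene and more RNA per cell cannot be told apart.

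The libraries held between 35589477 and 45172216 reads on genes. A limit of 3 reads, the highest level that a count of 0 allows, therefore corresponds to 2.59 to 3.44 normalized counts, for counting error only. SAMD1 itself lay between 2231 and 2382 normalized counts in the controls and between 824.8 and 1082 in the KO clones, a log2 fold change of -1.32 (SE 0.10, limma adjusted p = 0.000724). SAMD1 transcript was thus reduced but still read in all 3 clones. The authors checked the knockout at the protein level, by western blot and immunofluorescence, and transcript reads do not show how much protein remained. The sources used here do not say by which method each sequenced clone was checked. The KO clones differed from each other more than the control replicates did, with a chi-square per gene of 48.2 to 55.7 between clones against 2.60 to 5.03 between controls. Of 7 tested ductal and epithelial markers, 3 passed the test with higher values (KRT7, KRT18 and SOX9), as did 5.77% of all tested genes. KRT19 had no reads. The summed ductal markers ran from 63627 to 66838 in controls and from 68940 to 110460 in KO clones.

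**Figure D1:**
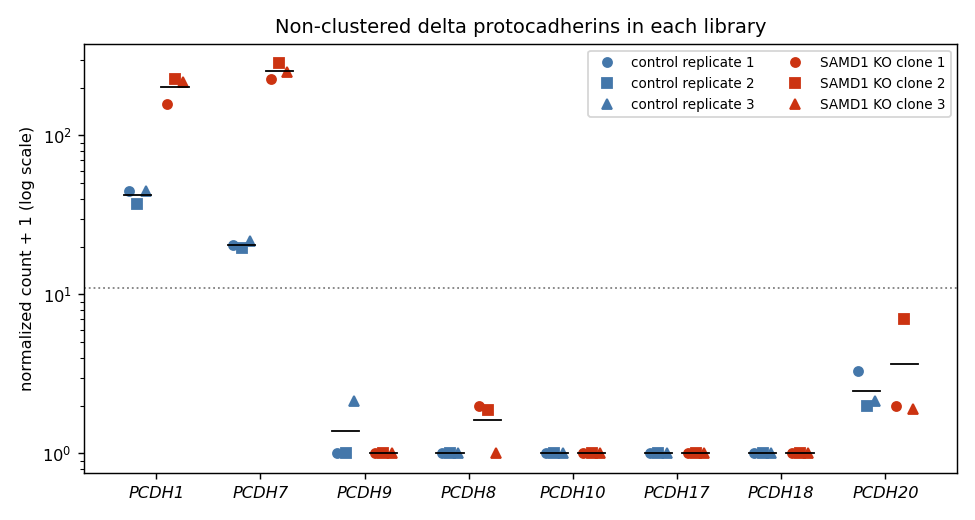
Normalized count plus 1 on a log axis for each of the 8 delta protocadherins, with 1 point per library for 3 control libraries and 3 SAMD1 KO clones, black bars at the group means and a dotted line at the mean count of 10 needed for testing. PCDH1 and PCDH7 separate the groups completely, PCDH20 reaches 6.05 in clone 2 alone, and the remaining members lie at or close to 0.

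The delta protocadherin genes are scattered, with 4 on chromosome 13, 3 on chromosome 4 and 1 on chromosome 5. PCDH1 (ENSG00000156453.14) spans chr5:141853090-141879246 on the minus strand, and PCDH7 (ENSG00000169851.16) spans chr4:30720369-31146805 on the plus strand in hg38. Because SAMD1 binds CpG islands, the 250 bases directly upstream of the start of the MANE Select transcript are shown for both, next to those of PCDH17 and PCDH18, which had no reads. They were read from hg38, 5′ to 3′ on the strand of the gene, and capitals mark every CG pair. The windows are chr5:141878411-141878660 for PCDH1, chr4:30720119-30720368 for PCDH7, chr13:57631494-57631743 for PCDH17 and chr4:137532495-137532744 for PCDH18.
PCDH1: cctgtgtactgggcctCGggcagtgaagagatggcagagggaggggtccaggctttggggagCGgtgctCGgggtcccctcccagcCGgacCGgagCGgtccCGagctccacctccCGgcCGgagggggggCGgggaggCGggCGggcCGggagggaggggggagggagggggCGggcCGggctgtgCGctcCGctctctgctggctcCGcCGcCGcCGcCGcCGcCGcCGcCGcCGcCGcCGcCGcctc
PCDH7: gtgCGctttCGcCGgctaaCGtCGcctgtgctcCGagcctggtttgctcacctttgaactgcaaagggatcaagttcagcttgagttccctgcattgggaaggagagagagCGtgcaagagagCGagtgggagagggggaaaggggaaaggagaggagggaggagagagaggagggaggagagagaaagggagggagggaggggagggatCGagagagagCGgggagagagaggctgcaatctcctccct
PCDH17: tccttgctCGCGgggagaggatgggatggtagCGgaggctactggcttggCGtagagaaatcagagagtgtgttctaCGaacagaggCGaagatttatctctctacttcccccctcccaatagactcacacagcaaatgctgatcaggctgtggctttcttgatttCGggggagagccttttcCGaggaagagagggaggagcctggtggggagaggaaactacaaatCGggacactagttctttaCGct
PCDH18: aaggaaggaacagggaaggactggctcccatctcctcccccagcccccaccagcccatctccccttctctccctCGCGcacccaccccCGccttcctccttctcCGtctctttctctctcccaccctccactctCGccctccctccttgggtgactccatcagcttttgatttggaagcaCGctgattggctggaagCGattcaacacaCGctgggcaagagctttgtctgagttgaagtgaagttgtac

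The PCDH1 window held 30 CG pairs, 82.9 as a percentile of all promoters, and ended in a run of CCG repeats close to the start. The PCDH7 window held 10 and consisted mostly of A and G in its downstream part. PCDH17 also held 10 and PCDH18 held 8, against a median of 19 over 15080 promoters and 22 over the 10200 promoters of tested genes. In this window PCDH7 thus held as many CG pairs as PCDH17, a member without reads. A link between CpG content and expression was not tested. In 1 kb centred on the start, PCDH1 had 102 CG pairs, PCDH9 68, PCDH7 67, PCDH8 62, PCDH17 41 and PCDH18 30, against a median of 68 for all promoters and 78 for those of tested genes. PCDH10 and PCDH20 were not in the RefSeq promoter table that fixed the set of promoters, which matched 6 of the 8 genes.

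The letters GCGC, which read the same on both strands, were counted with overlapping matches. In the 250 bases they occurred 1 time in PCDH1, 1 time in PCDH7, 1 time in PCDH18, 2 times in PCDH8, 5 times in PCDH9 and 0 times in PCDH17. They were present in 70.7% of all promoter windows of that length and in 84.7% of those of tested genes. In 1 kb, PCDH9 had 14 matches, PCDH1 13, PCDH7 9, PCDH8 5, PCDH17 2 and PCDH18 1, against a median of 8 over all promoters. The member with the most matches, PCDH9, had 1 read in all 6 libraries together. A match to these letters describes the sequence and shows no binding.

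**Figure D2:**
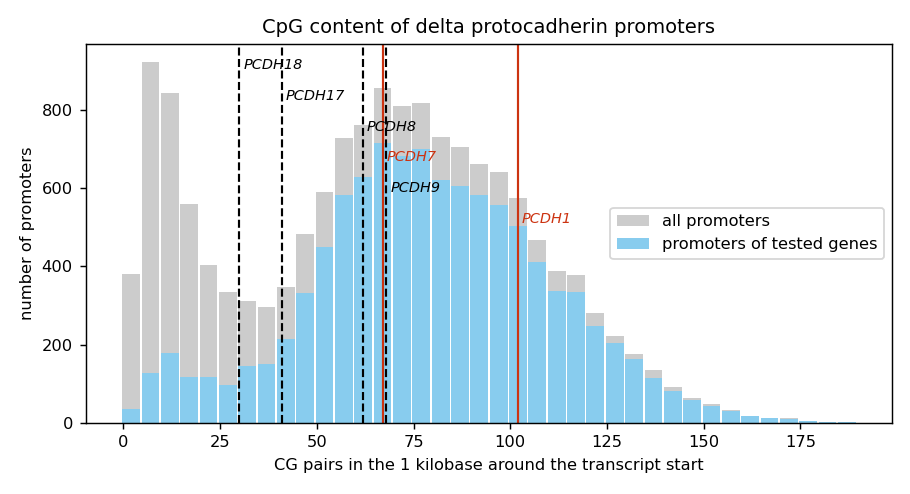
Distribution over all promoters of the number of CG pairs in the 1 kb centred on the MANE Select start, with solid red lines for PCDH1 (102) and PCDH7 (67) and dashed black lines for the other members in the promoter table. PCDH7 lies near the median of 68, and PCDH17 (41) and PCDH18 (30) lie below it.

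PCDH1 is a delta-1 protocadherin found in airway and other epithelia. Its control libraries held 38, 37 and 38 reads, and clones 1 to 3 held 159, 261 and 241 reads. After division by the size factors these were 43.5, 36.2 and 43.5 normalized counts in controls and 157.2, 225.5 and 216.8 in the clones. The groups did not overlap, the lowest clone lay 3.61-fold above the highest control, and clone 1 was the lowest of the clones. The mean was 41.1 ± 4.21 (SD, n = 3) in controls and 199.8 ± 37.2 in KO cells. On log2(normalized count + 1), the log2 fold change was 2.24 (SE 0.19, 95% interval 1.80 to 2.69, limma adjusted p = 0.000861 over 12773 genes). PCDH1 was 39th of the tested genes when ordered by log2 fold change.

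A gene was called when its log2 fold change was beyond 0.5 and its unadjusted limma p below 0.01, which 7.85% of the tested genes met, 5.77% with higher values and 2.08% with lower values. Both tested delta protocadherins met it with higher values, one of them PCDH7, which was picked for this. PCDH1, the member not picked this way, was called under each of 15 alternatives, with a log2 fold change of 2.03 to 2.47. Groups that did not overlap were common in these libraries, at 37.8% of all tested genes and, with higher KO values, 19.2%, so the separation of PCDH1 by itself sets it apart little. The means of both genes in control cells alone were above the filter of 10 normalized counts, so neither entered the test only through its KO values.

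PCDH7, a delta-1 protocadherin known to bind SET, an inhibitor of protein phosphatase 2A, had 17, 19 and 18 reads in the controls and 228, 327 and 276 reads in clones 1 to 3. The normalized counts were 19.4, 18.6 and 20.6 in controls and 225.5, 282.5 and 248.3 in the clones. The lowest clone lay 10.9-fold above the highest control. The clones were close to each other, the highest being 1.25-fold the lowest, against 1.43-fold for PCDH1. The mean was 19.6 ± 1.02 (SD, n = 3) in controls and 252.1 ± 28.7 in KO cells. This is a log2 fold change of 3.62 (SE 0.16), the 2nd largest among the tested genes. In the annotation 2 lncRNA genes and 1 pseudogene lie on the opposite strand within PCDH7, and an exon of one lncRNA covers the PCDH7 start. The library kit marks strand, but the strand setting of the counting is not given in the sources used here, so reads of these genes cannot be told apart from those of PCDH7. No annotated gene overlaps PCDH1.

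Relative to the mean of the controls, the log2 difference of PCDH7 was 3.46, 3.79 and 3.60 in clones 1 to 3, and that of PCDH1 was 1.92, 2.43 and 2.38. For both genes clone 1 had the smallest and clone 2 the largest difference. The 40 tested genes nearest to each were read in the same way. Around PCDH7, from chr4:17577198-40158252, the median difference of the neighbours was 0.021, -0.045 and -0.027 in the 3 clones. Around PCDH1, from chr5:141223343-148828623, it was -0.10, -0.54 and -0.013. Clone 2 thus had lower neighbours and the highest PCDH1, and removing the median shift of neighbouring genes gave a PCDH1 log2 fold change of 2.47. The neighbours of PCDH1 begin with PCDHB14 and include clustered PCDHG genes, which share exons, so that their single counts are uncertain.

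**Figure D3:**
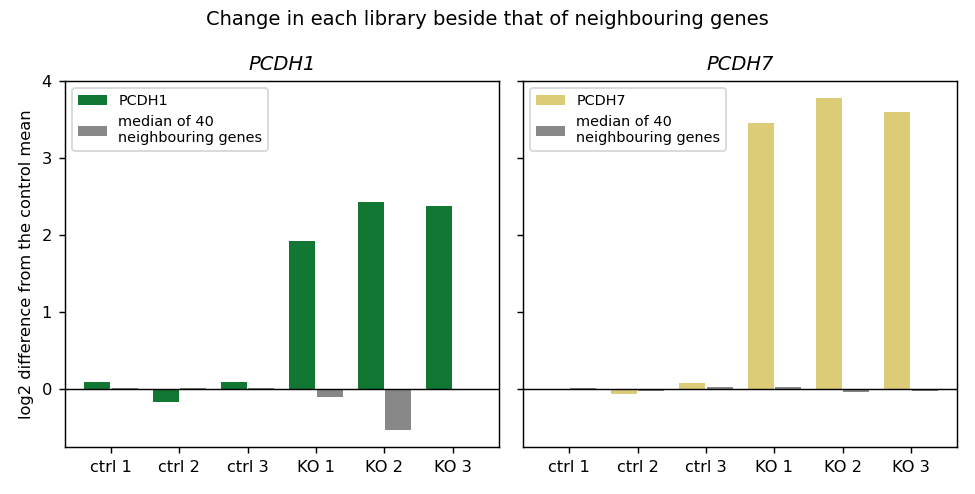
Log2 difference from the control mean for PCDH7 and PCDH1 in each of the 6 libraries, beside the median difference of the 40 nearest tested genes in the same library. PCDH7 lies between 3.46 and 3.79 and PCDH1 between 1.92 and 2.43 in the clones, while the neighbour medians lie between -0.54 and 0.021 there.

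Levels were compared between members only per length, as normalized counts per kilobase of the longest transcript. PCDH1 was the most abundant member in control cells at 8.53 ± 0.875 (SD, n = 3) per kilobase, followed by PCDH7 at 2.22 ± 0.116, and these 2 levels did not overlap. Both were low for this transcriptome, at 7.23 (PCDH1) and 1.21 (PCDH7) as percentiles of 12688 tested genes with a length. In KO cells the order was the same, with PCDH1 at 41.5 ± 7.72 and PCDH7 at 28.6 ± 3.26 per kilobase, which corresponded to the percentiles 17.5 and 14.5. Even in KO cells both were thus expressed below the large majority of tested genes.

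PCDH7 rose relative to PCDH1. The ratio of PCDH7 to PCDH1 per kilobase was 0.244, 0.280 and 0.259 in the control libraries and 0.783, 0.684 and 0.625 in clones 1 to 3, without overlap. Of the summed level per kilobase of all 8 genes, PCDH7 held 20.1 ± 1.30% in controls and 40.7 ± 2.69% in KO cells, and PCDH1 held 77.2 ± 0.543% and 58.5 ± 2.83%. This ratio contains the PCDH7 value that led to the choice of the family and was not tested. The remaining members together held little of the sum, of which PCDH20 held 2.57 ± 1.10% in controls and 0.682 ± 0.689% in KO cells.

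**Figure D4:**
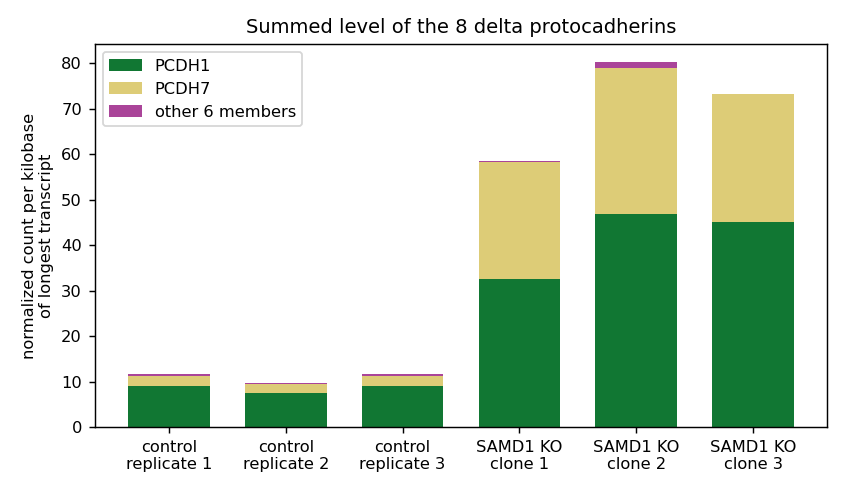
Summed normalized count per kilobase of the longest transcript for the 8 delta protocadherins, with 1 stacked bar per library in control cells and SAMD1 KO clones. The parts of each bar are PCDH1, PCDH7 and the remaining members together. PCDH1 leads in every library, and the ratio of PCDH7 to PCDH1 is higher in the KO clones (28.6 against 41.5 on average) than in control cells (2.22 against 8.53).

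The remaining members stayed at or near 0 in both groups. PCDH10 (chr4:133149294-133208606), which binds the WAVE complex, had 0 reads in all 6 libraries. So did PCDH17 (chr13:57631744-57729311), which brings WAVE and Ena/VASP proteins to cell contacts, and PCDH18 (chr4:137518918-137532494), a partner of the adaptor DAB1. Their level was thus under the limit of 3 reads in each library, and a difference between the groups was not detectable at this depth.

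PCDH8 (chr13:52842889-52848641), which regulates N-cadherin at synapses together with the kinase TAOK2, had 0, 0 and 0 reads in controls and 1, 1 and 0 in the clones. PCDH9 (chr13:66302834-67230445), a delta-1 member of neurons, had 0, 0 and 1 reads in controls and 0 in all clones. PCDH20 (chr13:61409685-61415849), whose place among the delta protocadherins has varied between classifications, had 2, 1 and 1 reads in controls and 1, 7 and 1 in clones 1 to 3. Only clone 2 exceeded 3 reads, and the groups overlapped. A protein-coding gene on the same strand overlaps PCDH20, so its few reads are uncertain. No fold change is given for these genes, since their counts were at or under the limit in all libraries other than clone 2 for PCDH20.

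The 2 delta protocadherins outside the 8 were also low. PCDH11X had no reads. PCDH19, mutated in a form of epilepsy, had 5.72, 2.94 and 4.58 normalized counts in controls and 2.97, 3.46 and 6.30 in the clones, with overlapping groups below the filter.

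Most transcripts of the proteins that delta protocadherins are known to bind passed the filter on low counts. A list of 24 genes held the catalytic subunits of protein phosphatase 1, SET and protein phosphatase 2A, the WAVE complex, the Ena/VASP proteins with RAPH1 (lamellipodin), TAOK2, DAB1, and the cadherins CDH2 and CDH11. Of these, 21 were tested, 1 was called higher and 0 were called lower by limma, edgeR and DESeq2, with a median log2 fold change of -0.042 against -0.0059 for all tested genes. Limma called 5.77% of all tested genes higher and 2.08% lower. At an unadjusted p below 0.05, 3 of the 21 were higher and 4 lower, while 16.1% of all tested genes were higher and 13.5% lower at this cut-off. Their highest levels per kilobase were those of SET (8750 in controls and 7830 in KO cells), the phosphatase subunit PPP1CC (8011 and 6960) and the WAVE subunit BRK1 (4663 and 4953), none of which was called.

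The called partner was CDH2, which encodes N-cadherin, the classical cadherin that PCDH8 associates with. It had 1376, 1426 and 1440 normalized counts in controls and 5596, 5278 and 5604 in the clones, a log2 fold change of 1.96 (SE 0.053, limma adjusted p = 9.05e-06). The clones varied less for CDH2 than for PCDH1 or PCDH7. NCKAP1, the WAVE subunit bound by PCDH10, had 20229, 20330 and 21200 in controls and 24240, 26018 and 25685 in the clones. Its log2 fold change of 0.30 (SE 0.054, limma adjusted p = 0.0142) was below the threshold of 0.5. DAB1, EVL and CDH11 had a mean below the filter in both groups.

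ENAH, an Ena/VASP protein at actin filament ends, was chosen for description after its values were seen, because the clones disagreed. It had 1742, 1863 and 1792 normalized counts in the controls, 2819 in clone 1, 336.1 in clone 2 and 446.1 in clone 3. The log2 fold change was -1.26 (SE 0.71, limma adjusted p = 0.282). Without clone 1 it was -2.21 (SE 0.12, limma adjusted p = 0.000477), without clone 2 -0.68 and without clone 3 -0.88. DESeq2 gave -0.58 and edgeR -0.59 with all clones. ENAH was called only without clone 1, which was left out here after its value was seen.

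Other protocadherin-like genes were compared next. A list of 15 solitary and giant cadherins of the FAT, Dachsous, CELSR and CDHR groups with PCDH12 and PCDH15 had 11 tested genes. Of these, 1 was called higher and 0 lower, against 5.77% and 2.08% of all tested genes. The median log2 fold change was -0.048. At an unadjusted p below 0.05, limma gave 3 higher and 0 lower, against 16.1% and 13.5% of all tested genes. At the same cut-off edgeR gave 3 higher and DESeq2 2 higher. FAT1, a giant cadherin of epithelial contacts, had the highest level per kilobase, 1365 in controls and 1332 in KO cells. CELSR1, a planar cell polarity cadherin, was the called gene, at 1196, 1324 and 1142 normalized counts in controls and 2551, 2585 and 1473 in clones 1 to 3. Its log2 fold change was 0.81 (SE 0.21, limma adjusted p = 0.0461). It was not called without clone 1, without clone 2 or without any of the 3 control replicates (log2 fold change 0.67 to 0.87, unadjusted limma p 0.0133 to 0.0222), and was 1.07 without clone 3. CELSR3 had 99.6 per kilobase in controls and 112.5 in KO cells and was not called.

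The clustered protocadherins occupy chr5:140786136-141512977 and end 340.1 kb from PCDH1. Of 53 genes, 25 were tested, and 0 were called in either direction by limma, edgeR or DESeq2. Limma called 7.85% of all tested genes. At an unadjusted p below 0.05, limma gave 0 higher and 1 lower (PCDHGC3, log2 fold change -0.23), against 29.6% of all tested genes in either direction, and edgeR and DESeq2 gave 0. The median log2 fold change was -0.028, and single genes ran from -0.78 to 0.42. PCDHGC3 was also the most abundant per kilobase (152.9 in controls and 131.0 in KO cells), ahead of PCDHB16 (66.2 and 66.6) and PCDHB13 (36.6 and 33.1). The summed normalized count was 2216 to 2386 in controls and 1800, 2157 and 2813 in clones 1 to 3. The sum thus lay below, below and above the control range, whereas PCDH1 was above its control range in all 3 clones. The PCDHA genes share exons with each other, as do the PCDHG genes, so the single counts of these genes are uncertain.

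**Figure D5:**
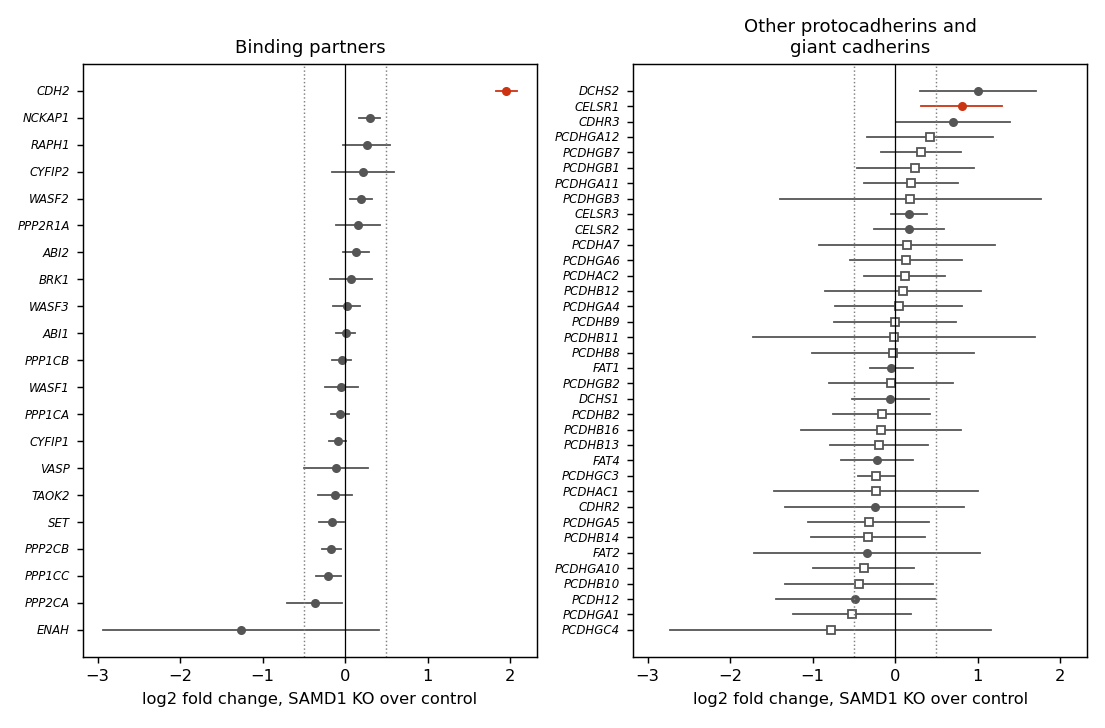
Log2 fold change between SAMD1 KO and control cells, with 95% intervals, for the tested cytoplasmic partners and the other tested protocadherin-like genes, without the members. Red marks called genes, open squares mark clustered genes and dotted lines mark -0.5 and 0.5. CDH2 (1.96) and CELSR1 (0.81) are the called genes, and the clustered genes lie between -0.78 and 0.42.

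Since delta protocadherins are best known from neurons, markers of neurons and of other cells were read. Of 11 neuronal markers 3 were tested and 0 were called by limma, edgeR or DESeq2, with 0 at an unadjusted p below 0.05. NEFL, NEFM and ELAVL4 had no reads. The summed normalized count of the neuronal markers was 156.7 to 171.8 in controls and 178.8 to 202.4 in KO clones, with means of 164.0 and 191.3. Most of this sum came from SYP (means of 67.9 in controls and 84.3 in KO cells) and TUBB3 (65.2 and 79.9). It is therefore not comparable with the fold change of a single gene. The 3 tested neuronal markers had log2 fold changes from -0.19 to 0.31. Of 8 fibroblast markers 3 were tested. Of these limma called 1 higher (PDGFRA) and edgeR and DESeq2 2 higher, and each tool gave 1 lower at an unadjusted p below 0.05. PDGFRA had 4, 4 and 3 reads in controls and 24, 17 and 17 in the clones, so it passed the filter only through its KO values. DCN and LUM had no reads, and the fibroblast sum was 167.2 to 170.2 in controls and 164.6 to 458.8 in KO clones. Of 8 endothelial and immune markers 5 were tested and limma called 0, with 2 lower at an unadjusted p below 0.05. DESeq2 called 1 lower and edgeR 0. CD3E had no reads, and the sum was 450.7 to 457.9 in controls and 311.0 to 439.8 in KO clones. Over all tested genes, limma called 5.77% higher and 2.08% lower. At an unadjusted p below 0.05, limma gave 16.1% higher and 13.5% lower. The part of the cell type markers in the difference of PCDH1 or PCDH7 was not tested.

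The genes with the profile most like each called member over the 6 libraries were found by the Euclidean distance between log2(normalized count + 1) values, after subtraction of the control mean. For PCDH1 the nearest was L3MBTL3, which encodes a chromatin reader, at a distance of 0.180. It had 900.3 ± 56.2 (SD, n = 3) normalized counts in controls and 4169 ± 518.1 in KO cells. It was followed by the Notch-responsive repressor HEY2 (0.294), with 30.7 ± 0.788 in controls and 153.7 ± 24.7 in KO cells, the transporters SLCO3A1 (0.437) and SLC4A4 (0.456), and PTHLH (0.476), a parathyroid hormone-like peptide. All 5 lie on other chromosomes than PCDH1.

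For PCDH7 the nearest was GUCY1A1, a subunit of soluble guanylate cyclase, at 0.767. It had 30.3 ± 7.15 normalized counts in controls and 309.3 ± 30.3 in KO cells. SLC16A14, of the monocarboxylate transporter family, followed at 0.802, with 54.9 ± 5.85 in controls and 519.5 ± 86.8 in KO cells. The synaptic organiser CBLN1 (1.35), the HMG-box factor TOX (1.43) and the inhibin subunit INHBB (1.43) were next, of which CBLN1 had only 1.14, 1.96 and 2.29 normalized counts in controls and 18.8, 27.6 and 15.3 in the clones. These 3 genes averaged below 10 in controls and passed the filter through their KO values. PCDH1 itself was at a distance of 2.40 from PCDH7, farther than any of these. These distances use the values that led to the choice of PCDH7 and are a description.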

How the data were processed

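RNA-seq was analysed in 6 libraries of PaTu8988t cells, 3 control and 3 SAMD1 KO. The authors aligned the reads with RNA-STAR to the human transcriptome (GenCode 43) and normalized counts per gene with DESeq2. featureCounts and hg38 are named in the submitters' processing notes, and the strand setting is not given in the sources used here. The authors deposited this signal as counts scaled by a size factor per library. Dividing by the smallest step of a library turned 100% of its values into whole reads (tolerance 0.1). The authors' table of their own DESeq2 comparison (fold changes and p-values) was not used.

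Genes averaging 10 or more normalized counts, 12773 in number, were compared on log2(normalized count + 1) by limma 3.58.1 with a mean-variance trend (R 4.3.3). This scale understates changes of low genes. Benjamini-Hochberg adjustment covered every tested gene. A call needed a log2 fold change beyond 0.5 and p below 0.01. Alternatives used edgeR 4.0.16 (quasi-likelihood), DESeq2 1.42.0, pseudocounts of 0.1 and 10, no filter or a mean of at least 50, scaling by the 75th percentile, a replicate block, removal of regional shifts, an adjusted p below 0.05 in the call, and leaving out each library. The fits were tested on simulated data. Positions and lengths come from GENCODE 44, with 19729 symbols matched, 183 of them through RefSeq synonyms. Promoter windows were read from hg38 at MANE Select starts with pysam 0.24.0. The RefSeq promoter entry of PCDH1 uses another start.

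Members and gene lists were chosen with earlier results of these data known. The genes named are the 8 members, SAMD1, PCDH11X, PCDH19, called genes of the partner and relative lists, the 3 of each list with the highest level per kilobase, CDH2, and the 5 nearest profiles of each called member. ENAH, NCKAP1, the marker genes and genes named as having no reads or only few were added for description after their values were seen. Depth is high for most genes, so the number of libraries limits the precision, except for the members with few reads.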

Additional observations from a re-analysis of the deposited data

How the results depend on the processing

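The count of called members was 2 in each of 16 alternatives, but only PCDH1 bears on it, since PCDH7 was picked for its rise. The log2 fold change of PCDH1 ran from 2.03 to 2.47 (limma, edgeR or DESeq2 adjusted p 1.30e-16 to 0.00904), and that of PCDH7, as a description, from 3.14 to 3.69, the lowest of each with a pseudocount of 10. The number of genes called, 1003 in all, ran from 751 to 1208. Of the 21 tested partners 1 was called, and 1 to 2 when a library was left out, the 2nd being ENAH without clone 1. Of the other protocadherin-like genes 1 was called, CELSR1, and 0 to 1 when a library was left out. The count was 3 with no filter on low values, where PCDHA10 (log2 fold change 1.53) and PCDHA11 (2.34) were added at low counts. It was 2 with regional shifts removed and 2 with the replicate block, where DCHS2 (log2 fold change 1.03 and 1.00) was added. Replicate numbers are shared by both groups, but the sources used here do not say whether they pair the samples. Deviations of same-numbered libraries correlated at 0.0391, 0.134 and 0.0318, and the block gave 984 called genes. Every library correlated best with the same number in the other group except control replicate 3, which was nearest to clone 1 (0.036). With lengths taken as the union of exons, the share of PCDH7 in the members' level per kilobase was 17.4% in controls and 36.5% in KO cells, and that of PCDH1 79.2% and 62.4%. For the members with at most 7 reads, depth limits any comparison.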
